A study of Homo sapiens with 1 sample.

Results

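The miR-99/100 and miR-125 families were read on 1 microRNA (miRNA) microarray. The RNA came from DLD-1, a human cell line grown from a colorectal carcinoma, after transfection of a control siRNA (si-NC, n = 1 array). The 10 members were chosen by name: mature miRNAs of 3 clusters that pair miR-100 with miR-125b-1, miR-99a with miR-125b-2 and miR-99b with miR-125a, of 2549 human miRNAs on the array. All 10 were found, each with 20 spots spread over 2 to 4 probes. The study asked how circLONP2, a circular RNA, alters miRNA levels. An array of depleted cells was not analysed here. With 1 array there was nothing to compare between groups, no biological replicate and no p-value. Every error below is technical: it comes either from repeated spots on the array or from the scanner software.

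Both arms of a miRNA hairpin, 5p and 3p, can become mature miRNAs, and usually 1 arm is kept in the silencing complex while the other is degraded. Bases 2 to 8 of the mature miRNA, the seed, pair with target mRNAs. The miR-99/100 family belongs to the wider miR-10 family, among the oldest of animal miRNAs, and restrains growth signalling through mTOR and the IGF1 receptor. The miR-125 family is homologous to lin-4 of the nematode, the first miRNA discovered. It is known for acting on LIN28 and on apoptosis genes such as BAK1. In vertebrates both families sit around a let-7 hairpin, and the host transcript of the miR-100 cluster, MIR100HG, has been linked to drug resistance of colorectal cancer lines.

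The 5p members carry only 2 seeds, and they are printed first because the sequences set which members can be told apart. RefSeq held a mature sequence for all 10 members (build GRCh38.p14, 5′ to 3′, seed in capitals).
hsa-miR-99a-5p (chr21:16539101-16539122, plus strand): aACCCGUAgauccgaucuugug
hsa-miR-100-5p (chr11:122152275-122152296, minus strand): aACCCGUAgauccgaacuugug
hsa-miR-99b-5p (chr19:51692618-51692639, plus strand): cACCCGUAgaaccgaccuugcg
hsa-miR-125a-5p (chr19:51693268-51693291, plus strand): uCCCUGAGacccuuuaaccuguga
hsa-miR-125b-5p (chr11:122099809-122099830, minus strand, and chr21:16590253-16590274, plus strand): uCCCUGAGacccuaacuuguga
The mature miR-99a-5p and miR-100-5p differ by the substitution U16A alone (position counted from the 5′ end, miR-99a-5p first). From miR-99a-5p to miR-99b-5p there are 4 substitutions, A1C, U11A, U16C and U21C. The miR-125a-5p and miR-125b-5p sequences share their first 13 bases and differ in length, at 24 and 22 bases. Since MIR125B1 and MIR125B2 give an identical miR-125b-5p, its signal cannot be divided between the chromosome 11 and chromosome 21 clusters.

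The 3p members are shown because, unlike miR-125b-5p, each marks 1 hairpin.
hsa-miR-100-3p (chr11:122152240-122152261, minus strand): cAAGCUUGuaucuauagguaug
hsa-miR-99b-3p (chr19:51692656-51692677, plus strand): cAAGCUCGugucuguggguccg
hsa-miR-125a-3p (chr19:51693306-51693327, plus strand): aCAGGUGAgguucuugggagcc
hsa-miR-125b-1-3p (chr11:122099769-122099790, minus strand): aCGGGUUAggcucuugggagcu
hsa-miR-125b-2-3p (chr21:16590290-16590311, plus strand): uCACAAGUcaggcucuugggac
No 2 of these share a seed. The 3p arms of miR-125b-1 and miR-125b-2 differ at 17 of 22 positions counted from the 5′ end, though a run of 12 bases occurs in both at shifted positions.

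The clusters differ in size. In the chromosome 19 cluster, miR-99b, let-7e and miR-125a lie within 710 bases, inside the span of the SPACA6 gene and its antisense gene SPACA6-AS1. The chromosome 11 cluster, miR-100, let-7a-2 and miR-125b-1, extends over 52528 bases within the long noncoding RNA gene MIR100HG. The chromosome 21 cluster, miR-99a, let-7c and miR-125b-2, extends over 51211 bases within the long noncoding RNA gene MIR99AHG. Lengths run between the outer mature arms on GRCh38.p14. Whether a hairpin is intronic or exonic in these genes was not determined here.

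The 1000 negative control spots had a 99th percentile of 16.1 in background-subtracted signal, and no miRNA spot was saturated. All 10 colon epithelium marker miRNAs were detected, by at least 1 arm where the list gives none, among them the miR-200 family and miR-192. Of 17 markers of other tissues 5 were detected, beside 44.4% of all miRNAs. In the blood list 3 of 4 were detected, miR-142-3p at 695 ± 50.05 (total gene signal ± error of the scanner software), miR-451a at 21.5 ± 1.67 and miR-223-3p at 25.4 ± 1.97, while miR-144-3p was not. In the neural and liver list 1 of 3 was detected, miR-9-5p, and in the muscle list 0 of 4. In the stroma and vessel list 1 of 6 was detected, miR-126-3p, while miR-143-3p, miR-145-5p, miR-199a-5p, miR-199a-3p and miR-214-3p were not. The part of other cell types in these signals was not tested.

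Of the 10 members, 9 were called detected by the scanner software, beside 44.4% of all 2549 miRNAs. All 5 of the 5p members were detected (49.1% of all miRNAs named 5p), and 4 of the 5 of the 3p members (43.8% of all named 3p). The exception was miR-125b-1-3p. Detection means that at least 1 probe gave a signal of 3 times its error or more. All 100 spots of the 5p members were well above background, against 57 of 100 spots of the 3p members and 34.3% of all miRNA spots. Stricter rules removed only 3p members. Where 50% or more of the spots of some probe had to be well above background, 8 members were kept (37.9% of all miRNAs passed). A median spot over 99% of the negative control spots kept 8 (31.0%), and a total gene signal of 5 or more kept 8 (33.3%). The member lost was miR-99b-3p each time. Asking for enough such spots on every probe kept 7 (29.3%), without miR-100-3p and miR-99b-3p.

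**Figure D1:**
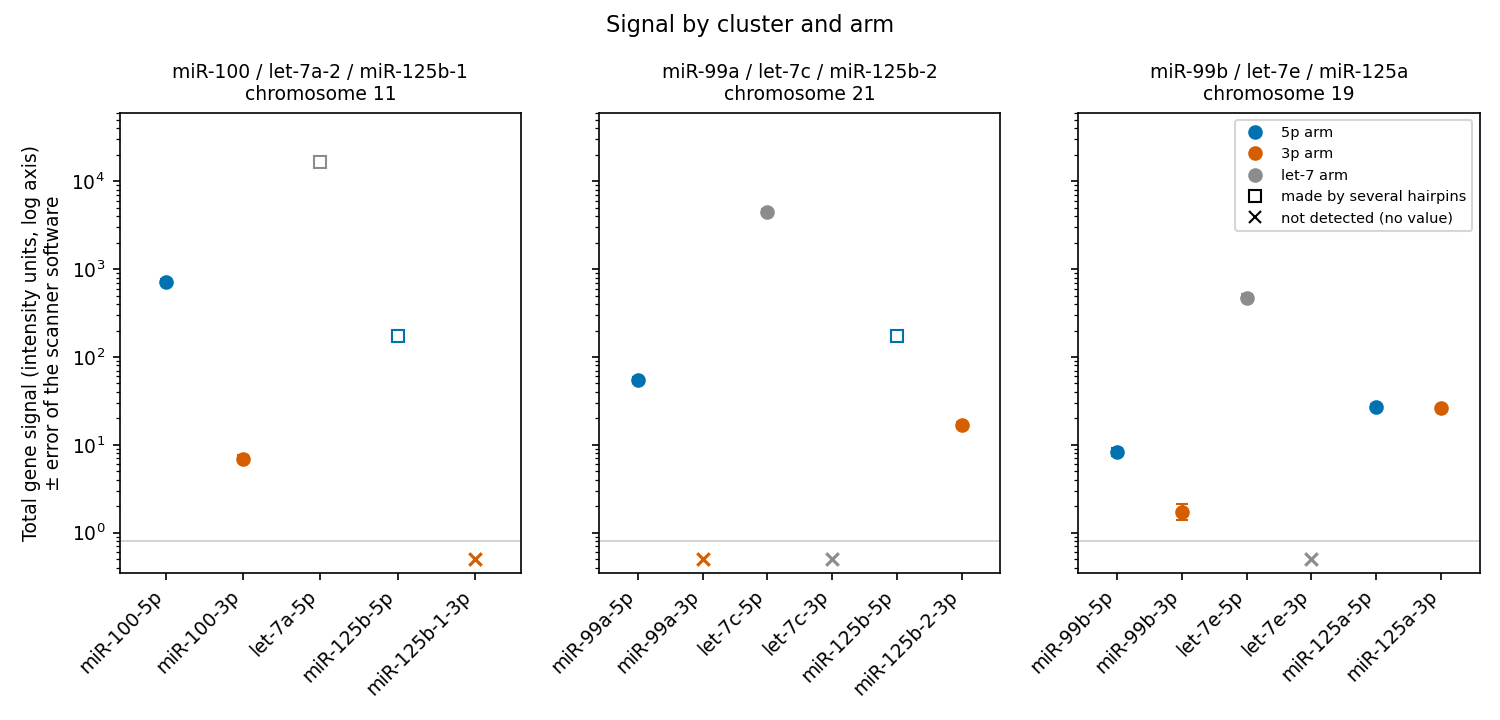
Total gene signal (intensity units, log axis) of each mature miRNA of the 3 clusters, with the error of the scanner software as bars, which are smaller than the symbol for most. Open squares are miRNAs made by several hairpins, and crosses below the line are miRNAs not detected, which have no value. The arm hsa-let-7a-2-3p was not found under that name on the array and is not drawn. Each cluster has a detected miR-99/100 5p arm, from 8.38 for miR-99b-5p to 719.8 for miR-100-5p. A part of binding by related miRNAs in these signals was not tested.

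Signals are given next by cluster and arm, as the total gene signal, which sums the signals of the probes of a miRNA. Signals of different miRNAs come from different probes and were not read as relative abundance. Over the 1133 detected miRNAs of the array the quartiles of this signal were 4.99, 12.5 and 52.0.

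In the chromosome 11 cluster, hsa-miR-100-5p gave 719.8 ± 60.08 (error of the scanner software), well above the upper quartile of the array. Its brighter probe had spots from 2731 to 3470 with a median of 3251 (mean 3191 ± 246, SD, 10 spots). Its dimmer probe had spots from 672 to 824 with a median of 746 (mean 745 ± 49.6, SD, 10 spots). The spots of each probe thus stayed close together, and those of the 2 probes did not overlap. As a log2 level, taken against the 75th percentile of all spots that belong to detected miRNAs, miR-100-5p stood at 3.43 ± 0.11 (SD over replicate spots about their probe mean).

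The opposite arm, hsa-miR-100-3p, gave 6.95 ± 0.598, below the median of detected miRNAs. It was measured by 4 probes with means of 11.1 ± 0.791, 19.7 ± 0.355, 20.7 ± 1.74 and 24.6 ± 3.69 (SD, 4 to 5 spots each). The dimmest of these had 0 of 5 spots well above background and lay under the 99th percentile of negative controls. All 15 spots of the other 3 were well above background, and all 4 probes passed 3 times their error. Both arms of the miR-100 hairpin were thus detected, as for 28.6% of the 810 hairpins named with both arms on the array.
MIR100 (chr11:122152229-122152308, minus strand, arms in capitals): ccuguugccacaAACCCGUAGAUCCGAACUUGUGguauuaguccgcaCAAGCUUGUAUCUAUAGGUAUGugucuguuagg

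The miR-125b hairpins give 1 shared 5p arm and a 3p arm each. hsa-miR-125b-5p gave 174 ± 12.5. Its brighter probe ran from 549 to 562 with a median of 556 (mean 556 ± 4.82, SD, 8 spots), and its dimmer probe from 378 to 409.6 with a median of 392 (mean 394 ± 9.52, SD, 9 spots). Here 3 of 20 spots were set aside as outliers, more than for any other member. Its log2 level was 1.72 ± 0.03.

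The 3p arms separated the hairpins. The chromosome 21 arm, hsa-miR-125b-2-3p, gave 16.9 ± 1.38, with 20 of 20 spots well above background. Its probes had means of 42.7 ± 4.58 (SD, 10 spots, from 34.2 to 48.7) and 49.5 ± 3.78 (SD, 9 spots, from 41.9 to 53.9). The chromosome 11 arm, hsa-miR-125b-1-3p, was not detected. Its 4 probes had means of -0.300, 0.741, 3.17 and 2.30, and 0 of its 20 spots was well above background. Its highest spot reached 6.70, below the lowest spot of miR-125b-2-3p and below the 99th percentile of negative controls. The array therefore held a 3p signal from MIR125B2 and none above background from MIR125B1. How much each hairpin gave to the shared 5p arm cannot be told apart.
MIR125B1 (chr11:122099757-122099844, minus strand, arms in capitals): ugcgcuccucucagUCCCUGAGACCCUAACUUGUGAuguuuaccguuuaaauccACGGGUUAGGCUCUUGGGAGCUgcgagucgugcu

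**Figure D2:**
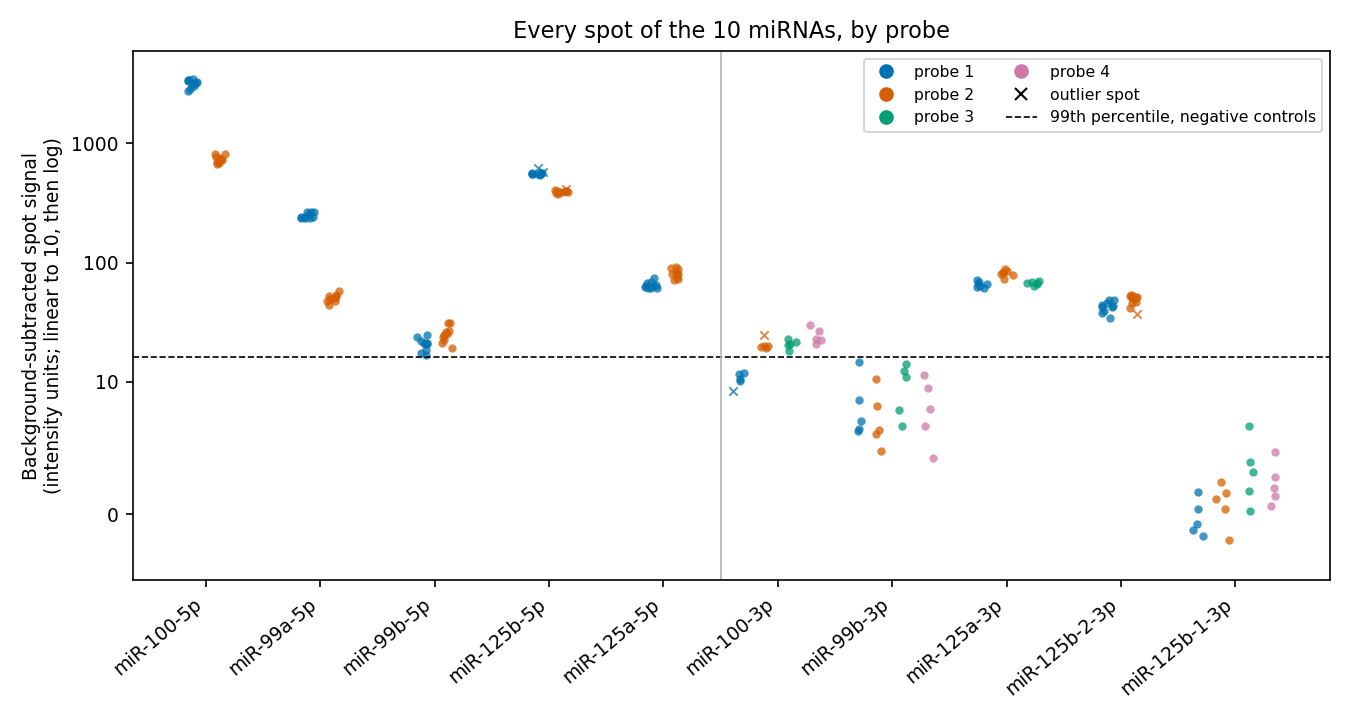
Background-subtracted signal of all 200 spots of the 10 miRNAs (intensity units, linear up to 10 and logarithmic above), coloured by probe, with 5p members on the left, 3p members on the right and crosses for the 6 outlier spots. The dashed line is the 99th percentile of negative control spots, 16.1: all spots of the 5p members lie above it, and all spots of miR-99b-3p and miR-125b-1-3p lie below it.

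In the chromosome 21 cluster, hsa-miR-99a-5p gave 54.9 ± 4.71, just above the upper quartile of detected miRNAs. Spots of its brighter probe ran from 237 to 268 with a median of 243 (mean 249 ± 12.7, SD, 10 spots). Spots of its dimmer probe ran from 44.5 to 57.6 with a median of 50.3 (mean 50.6 ± 3.75, SD, 10 spots). Its log2 level was -0.35 ± 0.09. The signal of miR-100-5p, which differs from miR-99a-5p by U16A alone, was 719.8 ± 60.08. A part of miR-100-5p in the signal of the miR-99a-5p probes was not tested. The opposite arm, hsa-miR-99a-3p, is outside the member list and was looked up after the other values had been seen. It was not detected, with 0 of 20 spots well above background.

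In the chromosome 19 cluster, both arms of both member hairpins were detected, the miR-99b arms below the median of detected miRNAs and the miR-125a arms above it. hsa-miR-99b-5p gave 8.38 ± 0.904, the lowest of the 5p members. Its probes had means of 20.7 ± 2.55 (SD, 10 spots, from 16.9 to 24.8) and 25.1 ± 3.82 (SD, 10 spots, from 19.2 to 31.0). All 20 spots were well above background, though the lowest stood only just over the 99th percentile of negative controls.

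hsa-miR-99b-3p was detected by the narrowest margin, at 1.74 ± 0.362, with 2 of 20 spots well above background. Its 4 probes had means of 8.62 ± 3.51, 7.17 ± 2.21, 10.4 ± 3.06 and 7.94 ± 2.72 (SD, 5 spots each), all under the 99th percentile of negative controls. The probe signals were 3.11, 2.64, 3.67 and 2.90 times their errors, so 2 of the 4 passed the limit of 3. The software summed those 2, and the sum over all 4 probes would be 3.12. The spots of the 4 probes overlapped throughout.

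**Figure D3:**
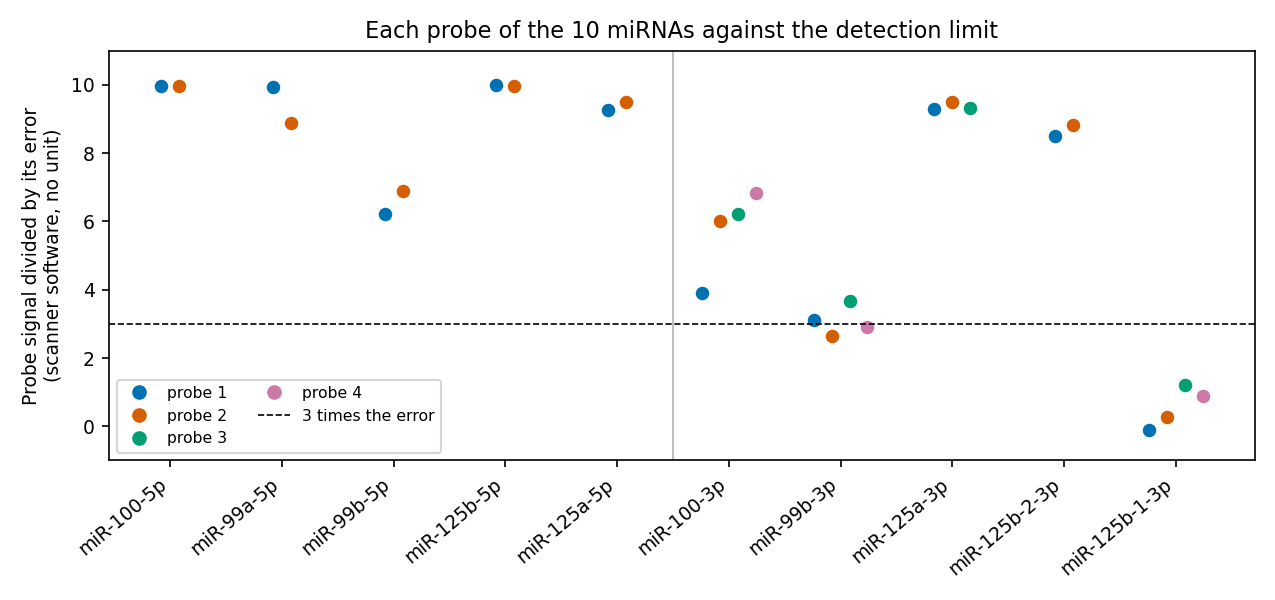
Signal of each probe divided by its error (no unit), as given by the scanner software, for the 10 miRNAs, with the detection limit of 3 as a dashed line. Of the 27 probes 21 pass the limit, the 4 probes of miR-99b-3p straddle it between 2.64 and 3.67, and the 4 of miR-125b-1-3p stay at or under 1.20.

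The arms of the miR-125a hairpin gave signals within their errors of each other. hsa-miR-125a-5p gave 26.8 ± 2.03 and hsa-miR-125a-3p gave 26.2 ± 1.63, and 20 of 20 spots were well above background for each. The probes of the 5p arm had means of 65.0 ± 4.42 (SD, 10 spots, from 60.8 to 74.5) and 81.4 ± 6.99 (SD, 10 spots, from 71.7 to 92.5). Those of the 3p arm had means of 65.8 ± 3.66, 81.6 ± 5.16 and 67.0 ± 2.19 (SD, 6 to 7 spots each). The spot ranges of the arms overlapped. The arms bind different probes, so equal signal does not show equal amounts.
MIR125A (chr19:51693254-51693339, plus strand, arms in capitals): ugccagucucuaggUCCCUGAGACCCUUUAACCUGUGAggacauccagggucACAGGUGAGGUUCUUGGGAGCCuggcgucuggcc

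The remaining log2 levels were -0.98 ± 0.11 for miR-125a-5p, -1.01 ± 0.08 for miR-125a-3p, -1.64 ± 0.14 for miR-125b-2-3p, -2.66 ± 0.20 for miR-99b-5p, -2.97 ± 0.14 for miR-100-3p and -4.14 ± 0.49 for miR-99b-3p. The SD was widest for miR-99b-3p, the dimmest detected member. No level is given for the undetected miR-125b-1-3p, of whose spots 4 were at or below 0.

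Probes of the same miRNA were compared for the 8 members with at least 2 probes well above background, leaving out dimmer probes. The median log2 difference between the brightest and dimmest of the probes kept was 0.32, beside 0.35 over all 800 miRNAs so compared. A difference of 1 or more was found for 2 of the 8 members, beside 19.6% of the 800. These were miR-99a-5p at 2.30 ± 0.04 (SE from replicate spots) and miR-100-5p at 2.10 ± 0.05. A count of 2 of 8 is near the share over all miRNAs, and nothing about the families is read from it. Both gaps stayed past 1 with the normexp background correction, as for 72 of the 800 miRNAs. The other 6 members ranged from 0.21 ± 0.06 for miR-125b-2-3p to 0.50 ± 0.01 for miR-125b-5p, with 0.27 ± 0.09 for miR-99b-5p. The value for miR-100-3p, 0.32 ± 0.10, leaves out its dimmest probe, and with it the difference was 1.15. Without the filter on dim probes 4 of 10 members passed 1, beside 33.1% of 1611 miRNAs, the added ones being miR-100-3p and the undetected miR-125b-1-3p. The sequences of the array probes were not analysed here, and a part of probe design or of binding by related miRNAs in these gaps was not tested.

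Replicate spots gave the technical spread. Over the 18 member probes that had at least 50% of spots well above background, the coefficient of variation (CV) had a median of 7.10%, from 0.865% for a probe of miR-125b-5p to 15.3% for a probe of miR-99b-5p. The median over all 1940 such probes was 8.73%. Outlier spots were left out of these CVs, among them 2 of the 10 spots of that miR-125b-5p probe. With outlier spots kept, the median of the members was 7.56%. With the normexp correction, which adds an offset to every spot, it was 3.97%. The errors of the software ran from 6.21% of the signal for miR-125a-3p to 20.8% for miR-99b-3p.

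**Figure D4:**
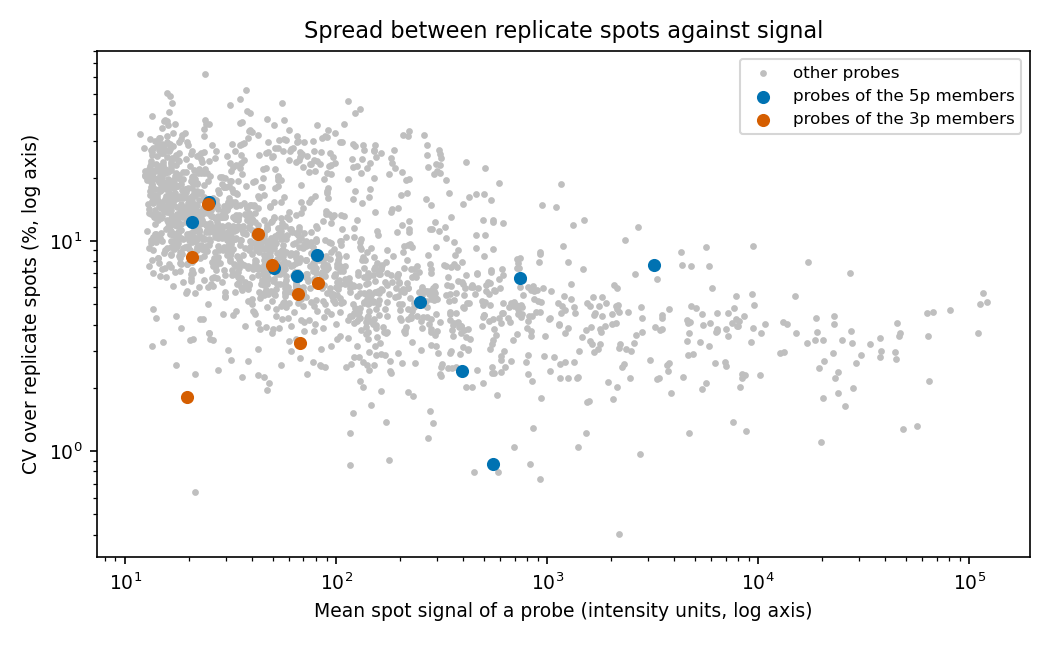
CV over replicate spots (%, log axis) against the mean spot signal of a probe (intensity units, log axis) for the 1940 probes whose spots were well above background in at least 50% of cases. The 18 probes of the 5p members (blue) and 3p members (orange) lie among the other probes (grey), at CVs from 0.865% to 15.3%. Outlier spots are left out.

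The let-7 arms of the same clusters, a list fixed by position, were read beside the members. Of 5 on the array 3 were detected, beside 44.4% of all 2549 miRNAs. These were the 5p arms: let-7c-5p of the chromosome 21 cluster at 4478 ± 372, let-7e-5p of the chromosome 19 cluster at 473 ± 43.4 and let-7a-5p at 16584 ± 1173. The let-7e-3p and let-7c-3p arms were not detected, each with 1 of 20 spots well above background. The 5p arm of let-7a is made by hairpins on chromosomes 9, 11 and 22, so its signal cannot be assigned to the miR-100 cluster. The mature let-7c-5p and let-7a-5p differ by G19A alone, and let-7e-5p and let-7a-5p by G9U alone. The probes of let-7e-5p differed by 3.32 ± 0.06 on the log2 scale, those of let-7c-5p by 2.07 ± 0.01 and those of let-7a-5p by 0.014 ± 0.023. A part of binding by related let-7 miRNAs in these signals or gaps was not tested.

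Relatives by sequence were taken next. The miR-125 seed recurred on the array in miR-4319, which was not detected, with 1 of 20 spots well above background. No other miRNA of the array with a RefSeq sequence (2248 of 2549) carried the miR-99/100 seed. A search for runs of 11 or more bases shared with a member, chosen after the values had been seen, also found miR-4324, which shares 15 bases with miR-125b-5p. Its signal was 5.82 ± 0.657. The same search found miR-4329, which was not detected.

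The wider miR-10 family was also detected, with signals of 26585 ± 1894 for miR-10a-5p and 12222 ± 872 for miR-10b-5p. miR-10a-5p has another seed than miR-100-5p, but its 3′ part is close to it.
hsa-miR-10a-5p (chr17:48579904-48579926, minus strand, seed in capitals): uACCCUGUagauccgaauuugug
Aligned at the 3′ end, the last 17 bases of miR-10a-5p and miR-100-5p differ at 1 position. For miR-99a-5p and miR-99b-5p such a stretch with at most 1 mismatch to miR-10a-5p was 6 and 5 bases. U16A, the only difference of miR-99a-5p from miR-100-5p, lies within those 17 bases and ends its stretch early. The longest run of bases shared with miR-10a-5p was 11 for miR-100-5p, 10 for miR-99a-5p and 5 for miR-99b-5p. A part of miR-10a-5p in the signal of the miR-100-5p or miR-99a-5p probes was not tested. The probes of miR-10a-5p differed by 0.34 ± 0.02 on the log2 scale, those of miR-100-5p by 2.10 ± 0.05 and those of miR-99a-5p by 2.30 ± 0.04. Gaps of 1 or more were found for 19.6% of the 800 miRNAs compared, and their cause was not tested.

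The deposited log2 values of the authors kept the members in a similar place. They ran from 9.41 for miR-100-5p through 7.46 for miR-125b-5p, 5.93 for miR-99a-5p, 4.85 for miR-125a-5p, 4.81 for miR-125a-3p, 4.13 for miR-125b-2-3p and 3.11 for miR-99b-5p to 2.79 for miR-100-3p. The value of miR-99b-3p was 2.3236, a value held by 283 miRNAs of the array, and the undetected miR-125b-1-3p was at the floor of 2.32. The deposited values thus do not set miR-99b-3p apart from the other miRNAs at that value. Deposited minus log2 total gene signal had a median of 0.053 over the 9 detected members.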

How the data were processed

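MiRNA levels were measured in 1 si-NC sample of DLD-1 cells on 1 Agilent array with 1 colour. Cyanine 3-pCp was the label per the labels. The methods of the study describe cDNA labelling, and the values do not settle which applies. The deposited spot intensity came from Feature Extraction 11.0.1.1 per the file headers, with detection, outlier and well-above-background flags, and was not normalized between arrays. The authors also deposited log2 values, quantile normalized in GeneSpring, whose scale and floor were read from the values. Of the columns of samples available here, 0 were left out, and an array of depleted cells was not analysed. The total signal of a probe equalled its mean spot signal times its number of spots times 0.0183.

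Outlier spots were left out (6 of 200 for members) and control spots kept apart. Levels were log2 background-subtracted intensity minus log2 of a reference (143), the 75th percentile of spots belonging to detected miRNAs. Named were all members, the let-7 arms of their clusters, miRNAs of the array sharing a 5p member's seed, and miR-10a-5p and miR-10b-5p. Members, lists and alternatives were chosen with earlier results of these data known. Alternatives were 4 other detection rules, another percentile base, normexp (offset 50, on the median spot signal), outliers kept, no dim-probe filter and the deposited values. The calculations were tested on simulated data. Python 3.11.15 with numpy 2.4.6, pandas 2.3.3 and matplotlib 3.10.9, and R 4.3.3 with limma 3.58.1, were used. The array was designed on hg19, while sequences and coordinates are of RefSeq on GRCh38.p14, and no coordinate of the array was used. The single array limits the precision, and signal over background stands in for depth.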

Additional observations from a re-analysis of the deposited data

How the results depend on the processing

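Detection of the 5p members (5 of 5) and of the let-7 arms (3 of 5) was the same under all 4 other rules, and that of all members moved between 7 and 9. The count of 3p members moved from 4 to 2 where every probe had to be well above background. The median level of the 5p members, -0.35, moved to 2.09 when the percentile was taken from every miRNA spot (a shift of 2.44 for every member by construction), to -0.14 with normexp and to 0.10 with deposited values. Normexp moved the dim members most, miR-99b-3p from -4.14 to -1.60, miR-100-3p from -2.97 to -1.39 and miR-99b-5p from -2.66 to -1.33. The median probe difference, 0.32, moved to 0.19 with normexp and to 0.51 without the filter for dim probes, and under normexp the gap for miR-99a-5p was 1.49 and that for miR-100-5p 2.03, both still past 1. Without that filter the members past 1 went from 2 of 8 to 4 of 10, with miR-100-3p at 1.15. This count and the values of single members under each alternative were added after seeing the data. The median CV, 7.10%, was 3.97% with normexp, 7.56% with outlier spots kept and 8.05% without the filter. The median of deposited minus scanner values, 0.053, moved to -1.34 with the mean log2 spot signal, which is on the scale of spots and not of summed probes. Of 19 alternative counts 17 lay within 1.5 times the main count. Of 72 alternative levels, differences and CVs 34 lay within their spread, which for the median CV was the SD over probes. The cause was not tested elsewhere. No paired analysis was possible because there was 1 sample. Signal over background limits miR-99b-3p and miR-100-3p, whose detection depends on the rule.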
